A study of Mus musculus with 2 samples.

Results

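The chemokine gene Cxcl12 and the genes of its 2 receptors, Cxcr4 and Ackr3, were followed through single-cell RNA sequencing (scRNAseq) of the embryonic mouse telencephalon. The members were the rows carrying these symbols, 3 of 28001 features in one library and 3 of 32286 in the other. CXCL12 is a secreted protein that attracts or positions cells carrying the G protein-coupled receptor CXCR4. ACKR3 is an atypical receptor that binds CXCL12 without classical G protein signalling, recruits arrestins and takes the chemokine up, so that it can lower the amount around a cell. In the developing forebrain the meninges are a known source of CXCL12, and the system is known for guiding Cajal-Retzius neurons, the early reelin-secreting cells of the cortical surface, and migrating interneurons.

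The septal explant library pooled 8 PGKCre;Rosa26YFP embryos at E11.5 from 2 litters with 4 Dbx1Cre;Rosa26tdTomato embryos at E12.5, also from 2 litters. PGKCre is a broadly active Cre, so YFP RNA tags cells of the younger embryos, whereas tdTomato tags cells with a history of Dbx1 promoter activity in the older ones. The telencephalic vesicle library pooled 3 wild-type embryos from 2 litters, labelled E12 and given as E11.5 to E12 in the study's methods. All mice were C57BL/6J, and both samples carry the genotype label wild-type, the reporter alleles notwithstanding. Embryos within a pool cannot be separated and each tissue is 1 library, so no significance test was possible. The intervals below are exact 95% intervals that cover counting error only, and the libraries, made with different kits and Cell Ranger versions, were described separately.

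After filtering, 5384 of 5827 barcodes remained in the septal explants and 11758 of 14283 in the telencephalic vesicle, with medians of 12868.5 and 9058.5 unique molecular identifiers (UMIs, each counting 1 captured RNA molecule). The cells formed 25 and 28 clusters, named "like" a cell type from marker genes, and 147 and 983 cells stayed unnamed. The class names used here stand for these marker-like clusters. A level is given in CPM, the UMIs of a gene in a class per 1000000 UMIs of that class. The naming rule required raised Trp73 for Cajal-Retzius neurons and raised Lhx6 for medial GABAergic neurons, so their levels follow from it. Trp73 was at 241 and 341 CPM, and Lhx6 at 195 in the vesicle. Col3a1, a mesenchymal marker, was at 1197 and 953 in mesenchyme. Vesicle pallial glutamatergic neurons had less Fezf2 (40.2 against 51.6 CPM in the rest) and Nfib (325 against 346), and more of their other markers. Vesicle lateral GABAergic neurons had less Foxp1 (141 against 313) and Rarb (6.36 against 9.05), and more of their other markers. The septal cluster that the marker rule named lateral GABAergic neuron is called GABAergic neurons here, because of 8 lateral markers, leaving aside the general GABAergic genes Gad1, Gad2, Dlx5 and Dlx6, only Isl1 (554 against 32.1 CPM in the rest) and Meis2 (406 against 131) were higher in it. Ebf1, Foxp1, Foxp2, Rarb, Zfp503 and Tac1 were lower. Medial subpallial progenitors carry a loose name, since Nkx2-1 gave a UMI in 54.7% of them in the vesicle and 20.7% in the explants. Shh and Lhx8 were lower than in the rest in the septal class, and Lhx8 in the vesicle class, while the other medial markers were higher. No vesicle cluster was named lateral subpallial progenitor, so all vesicle subpallial progenitors carry the medial name. The septal mesenchyme cluster of 44 cells also held 10 cells in which macrophage markers equalled or exceeded mesenchymal ones. Free RNA was present in both libraries, since the globin Hbb-bh1 gave a UMI in 41.2% of septal and 86.8% of vesicle neural cells.

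Cxcl12 (ENSMUSG00000061353) lies on the plus strand of chromosome 6 at chr6:117168535-117181367 of GRCm38, with 4 annotated transcripts of 3 to 4 exons. Cxcr4 (ENSMUSG00000045382) lies on the minus strand at chr1:128588199-128592293, with 2 transcripts of 2 exons each, and Ackr3 (ENSMUSG00000044337) on the plus strand at chr1:90203980-90216751, with 2 transcripts of 2 to 3 exons. No other annotated gene overlapped any of them in the GENCODE annotation, so no overlapping gene competes for their reads. Counts are per gene, so they do not show which transcription start was used. The 100 bases before an annotated start of each gene (RefSeq, GRCm38.p6, 5′ to 3′ on the strand of the gene) are printed. They span chr6:117168435-117168534, chr1:128592300-128592399 and chr1:90203880-90203979, and capitals mark TATAAA, the core of the TATA box, or its reverse complement TTTATA.
Cxcl12: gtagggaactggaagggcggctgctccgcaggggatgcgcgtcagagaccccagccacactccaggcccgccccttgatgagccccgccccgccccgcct
Cxcr4: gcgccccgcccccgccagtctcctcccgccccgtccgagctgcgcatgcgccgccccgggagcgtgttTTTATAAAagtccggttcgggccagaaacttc
Ackr3: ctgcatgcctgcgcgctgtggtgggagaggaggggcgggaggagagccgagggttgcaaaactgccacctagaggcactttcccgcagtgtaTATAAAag

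Both receptor windows held TATAAA, starting 30 bases before the annotated start in Cxcr4, where the reverse motif overlaps it, and 8 bases before it in Ackr3. The ligand window held none. On either strand, the motif occurred in 5.56% of 32851 RefSeq promoter windows of this length. The GC box GGGCGG, counted on both strands and with overlaps, occurred 4 times in the Cxcl12, 3 times in the Cxcr4 and once in the Ackr3 window, against at least 1 match in 24.7% of all windows. These matches are descriptions of sequence, and no measurement here bears on the binding of a factor.

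Cxcl12 transcripts were concentrated in mesenchyme in both libraries. In the telencephalic vesicle, 494 mesenchymal cells, 4.20% of those kept, held 1381 of the 1624 Cxcl12 UMIs, or 85.0%. The septal explants had 44 such cells, 0.817% of those kept, which held 346 of 415 UMIs, or 83.4%. The level was 199 CPM (189 to 210.3) in vesicle mesenchyme against 1.34 (1.17 to 1.53) in all 9790 neural cells, a 149-fold ratio (129 to 173). The septal level was 435 (390.0 to 483) against 0.905 (0.703 to 1.15) in 5167 neural cells, a ratio of 480.3 (369 to 632). Without the 10 cells led by macrophage markers, which held no Cxcl12 UMI, the septal ratio was 735 (565 to 967). Among genes with at least 50 UMIs over both classes, 0.343% of 16318 in the vesicle and 0.285% of 12999 in the septal explants had a higher mesenchyme over neural ratio than Cxcl12. For orientation, 11.1% and 13.0% of these genes were higher in mesenchyme by 2-fold or more.

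Per cell, the ligand was detected in 71.7% of vesicle mesenchymal cells, with a median of 2 UMIs and a highest value of 34. Among septal explant cells it was detected in 70.5% of mesenchymal cells, with a median of 5.5 and a highest value of 36. Thinning cells to 3500 UMIs in the vesicle and 8000 in the explants gave 44.6% and 71.8%. Cells below that depth were left out, so shares before and after thinning are not over the same cells. Neural cells with a Cxcl12 UMI were rare, at 1.85% in the vesicle and 1.22% in the explants, and erythroid cells, blood cells that should lack the gene, gave 0.50% of 400 and 0 of 26. No septal neural cell held more than 2 UMIs, and the highest vesicle neural cell held 6. Of the 34 septal mesenchymal cells led by mesenchymal markers, 31 carried the transcript.

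**Figure D1:**
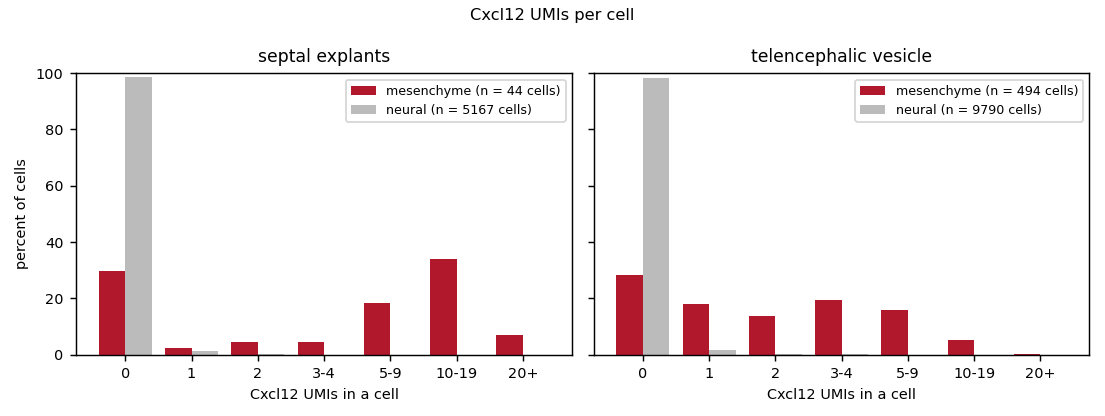
Share of cells (percent, bars) holding each number of Cxcl12 UMIs, for mesenchymal cells (red) and all neural cells (grey) of each library. Most neural cells sit at 0, whereas 71.7% of vesicle and 70.5% of septal mesenchymal cells hold at least 1 UMI, up to 34 and 36.

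At a finer clustering (resolution 2.5), vesicle mesenchyme split into 2 parts that differed in ligand and scavenger receptor. A part of 220 cells led by Crym, Cped1, Crabp1 and Tfap2b had 266 Cxcl12 CPM, and a part of 275 cells led by Dkk2, Col1a1 and Lum had 146, a ratio of 1.82 (1.63 to 2.03). Ackr3 was ordered the other way, at 37.7 and 57.6 CPM, a ratio of 0.655 (0.519 to 0.824). Cxcl12 and Ackr3 were left out of the genes used for clustering, and the split is a description. Within the whole mesenchymal class, 141 cells held both transcripts against 149 expected from the shares at equal depth, a ratio of 0.945 (0.795 to 1.11).

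Endothelial cells were the second vesicle class in Cxcl12 level, with 14 UMIs in 22 cells, or 18.8 CPM (10.3 to 31.5). This level was 7.82 under 1 of the 6 other clusterings. Macrophages had 6 UMIs in 69 cells, or 4.55 CPM (1.67 to 9.90). Endothelial and macrophage classes were not separate clusters in the septal explants.

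Within the neural lineages, Cxcl12 was highest in differentiating subpallial cells, the cluster between ventral progenitors and GABAergic neurons. In the vesicle these 738 cells held 51 UMIs, a level of 8.03 CPM (5.98 to 10.6). Medial subpallial progenitors were at 1.46 (1.10 to 1.89) and the GABAergic neurons together at 0.733, with 3 UMIs in 543 cells. The differentiating cells thus stood 5.50-fold (3.69 to 8.18) above the progenitors, and this ratio lay between 5.79 and 7.14 under 6 other clusterings. The same class of the explants had 6 UMIs in 179 cells, 3.58 CPM (1.31 to 7.79), an interval that overlaps that of the medial subpallial progenitors at 2.62 (1.35 to 4.57). The level of these progenitors was lower under each of the 6 other clusterings, at 0.347 to 2.14. The septal GABAergic neurons held 0 UMIs in 248 cells, which allows a level of up to 1.11 CPM, and reached 2.60 CPM under another clustering.

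Pallial glutamatergic neurons, the earliest excitatory neurons of the cortex, had more Cxcl12 than pallial progenitors in both libraries at low counts. The vesicle values were 2.96 and 0.558 CPM from 16 UMIs each, a ratio of 5.31 (2.49 to 11.3), which ranged from 2.24 to 5.81 over the other clusterings. The septal values were 2.03 from 12 UMIs and 0.517 from 10, a ratio of 3.92 (1.55 to 10.1). Cajal-Retzius neurons held 3 UMIs in the vesicle and 0 of 217 cells in the septal explants carried one, which allows a share of cells with a UMI of up to 1.38%, a limit on detection and not on expression.

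Cxcl12 was set, after its levels were seen, beside Col3a1, a fibrillar collagen gene high in mesenchyme. Free RNA may come from more than 1 class, and its own proportion of the 2 genes was not measured. Vesicle mesenchyme had 0.209 Cxcl12 UMIs per Col3a1 UMI (0.197 to 0.222). Pallial progenitors, at 0.232 (0.126 to 0.404), and septal progenitors, at 0.339 (0.193 to 0.571), had intervals that hold the mesenchymal value. Whether Cxcl12 in any neural class is carried-over RNA was not tested. Differentiating subpallial cells had 51 Cxcl12 and 19 Col3a1 UMIs, a proportion of 2.68 (1.56 to 4.81). Endothelial cells had 14 and 1. Vesicle pallial glutamatergic neurons were at 0.667 (0.331 to 1.31) and medial subpallial progenitors at 0.409 (0.294 to 0.562), both above the mesenchymal proportion. Also above it were vesicle apical progenitors without a regional name, at 1.36 (0.585 to 3.28), and hem progenitors, at 0.593 (0.298 to 1.14). Ventral pallial progenitors, at 0.524 (0.228 to 1.14), were above it too. Septal mesenchyme was at 0.363 (0.320 to 0.411), while pallial progenitors, at 0.588 (0.241 to 1.36), and pallial glutamatergic neurons, at 0.857 (0.362 to 1.997), had intervals that reached the mesenchymal one. Septal medial subpallial progenitors, at 4.0 (1.08 to 22.1), and all septal neural cells together, at 0.895 (0.635 to 1.26), were above the septal mesenchymal proportion. All vesicle neural cells together were at 0.528 (0.446 to 0.624), above that of vesicle mesenchyme.

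Levels in the other neural classes lay between 0.505 CPM, in choroid plexus or roof plate, and 1.81 CPM, in APs without a regional name, for the vesicle, apart from septal glutamatergic neurons with 0 UMIs in 101 cells. The septal range over the other neural classes with a Cxcl12 UMI was 0.458 CPM, in hem progenitors, to 1.38 CPM, in basal progenitors. Neighbours in these orders had overlapping intervals.

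**Figure D2:**
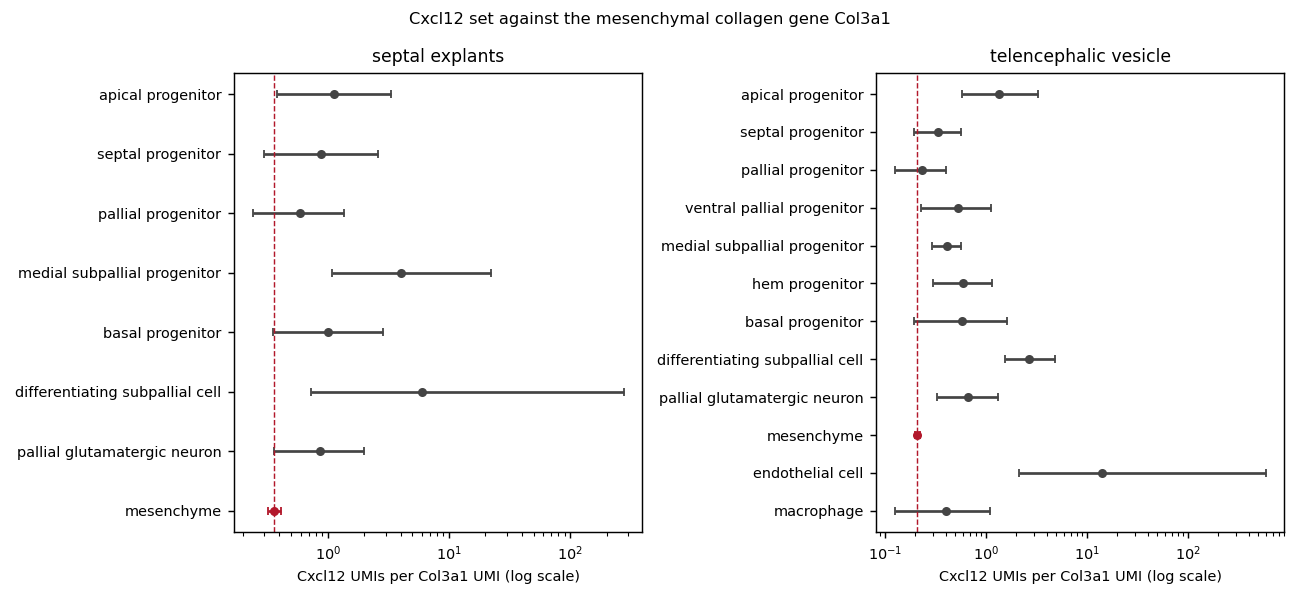
Cxcl12 UMIs per Col3a1 UMI (log scale) in classes with at least 5 Cxcl12 UMIs, with exact 95% counting intervals and the mesenchymal proportion as a dashed line. Vesicle differentiating subpallial cells, at 2.68, lie above the line at 0.209, and pallial progenitors, at 0.232, on it.

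Cxcr4, the signalling receptor, was highest among neural classes in Cajal-Retzius neurons and in progenitors of the cortical hem, the Wnt-secreting medial edge of the pallium from which many Cajal-Retzius neurons arise. In the vesicle, Cajal-Retzius neurons were at 24.6 CPM (17.7 to 33.4) and hem progenitors at 13.4 (11.8 to 15.1). The same septal classes were at 13.8 (9.63 to 19.04) and 7.78 (4.53 to 12.46). The next class in order was medial subpallial progenitors in the vesicle, at 10.5 (9.50 to 11.6), and septal progenitors in the explants, at 4.30 (3.27 to 5.54), whose interval overlaps that of the septal hem.

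Compared with pallial glutamatergic neurons, Cajal-Retzius neurons had 3.09-fold (1.97 to 4.86) more Cxcr4 in the vesicle and 3.54-fold (2.04 to 6.26) more in the septal explants. Under the other clusterings this ratio lay between 1.66 and 3.19 in the vesicle and between 2.75 and 3.80 in the septal explants. Hem progenitors had 1.60-fold (1.40 to 1.84) more than the other apical progenitors (APs) in the vesicle and 2.51-fold (1.43 to 4.15) more in the explants. Cajal-Retzius neurons exceeded hem progenitors 1.84-fold (1.29 to 2.57) in the vesicle, and by 1.77-fold in the explants with an interval reaching below 1 (0.967 to 3.35).

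Shares of cells were compared at equal depth, since hem progenitors were sequenced more deeply than the neurons. A Cxcr4 UMI was present in 17.3% of the 191 vesicle Cajal-Retzius neurons, whose median depth was 6762, against 0.50% of 400 erythroid cells with a median of 5428. After thinning to 3500 UMIs, with shallower cells left out, the shares were 6.35% and 0.280%. Hem progenitors went from 21.5%, at a median depth of 12418, to 4.38%. Of the septal Cajal-Retzius neurons 12.9% carried a Cxcr4 UMI, 8.91% after thinning to 8000 UMIs in the same way, and hem progenitors went from 13.0% to 2.4%. In this single random thinning the Cajal-Retzius neurons had the higher share in both libraries, although at full depth they had not. The thinned hem share of the explants comes from at most 131 cells. In the explants the CPM ratio of the pair had an interval reaching below 1, so the order is not settled there.

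Regional differences among progenitors were seen inside the named classes of the vesicle. The hem cluster led by Rspo1, Rspo2, Bmp6 and Lmx1a was at 16.3 Cxcr4 CPM (13.9 to 18.996), above the hem cluster led by Adamtsl1 and Sfrp2 at 10.5 (8.58 to 12.7). Of the subpallial clusters, that with Nkx2-1 and Shh among its leading genes was at 13.7 (11.9 to 15.6), and that led by Mctp1 and Dach2 at 6.60 (5.06 to 8.46). The Fgf17- and Fgf8-led septal cluster was at 11.7 (9.48 to 14.2) against 5.33 (4.17 to 6.72) in the other septal cluster.

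GABAergic neurons were at the low end for Cxcr4. The medial, Lhx6-positive neurons of the vesicle held 2 UMIs in 273 cells, 1.06 CPM (0.128 to 3.82), and the lateral ones 5 UMIs in 270 cells, 2.27 (0.738 to 5.30). The level of the medial neurons ranged from 1.11 to 3.81 over the other clusterings. Septal GABAergic neurons held 1 UMI in 248 cells, and septal glutamatergic neurons 1 UMI in 139 cells. Mesenchyme, the class richest in the ligand, was low in this receptor at 1.44 CPM (0.693 to 2.66) in the vesicle, 0.164 of the neural level (0.0785 to 0.303), where 17.1% of the tested genes were lower by 2-fold or more. The septal mesenchyme held 1 Cxcr4 UMI, in a cell led by macrophage markers, and 21.9% of genes were that much lower there. The 22 endothelial cells of the vesicle held 14 Cxcr4 UMIs, 18.8 CPM (10.3 to 31.5).

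Between these ends, vesicle Cxcr4 descended in small steps from basal progenitors at 9.71 CPM through APs without a regional name at 8.19, pallial glutamatergic neurons at 7.97, septal progenitors at 7.79 and pallial progenitors at 7.50. Differentiating subpallial cells followed at 6.14, ventral pallial progenitors at 5.31, choroid plexus or roof plate and macrophages at 4.55 each, and septal glutamatergic neurons at 3.26. The septal order ran from pallial glutamatergic neurons at 3.89 over pallial progenitors at 3.26, lateral subpallial progenitors at 3.02, basal progenitors at 2.14 and medial subpallial progenitors at 1.96 and APs without a regional name at 1.74 to differentiating subpallial cells at 1.19. Neighbours in both orders overlapped in their intervals. Septal medial subpallial progenitors were at 2.37 to 4.44 under the 6 other clusterings, so their place in the order holds for this clustering only.

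**Figure D3:**
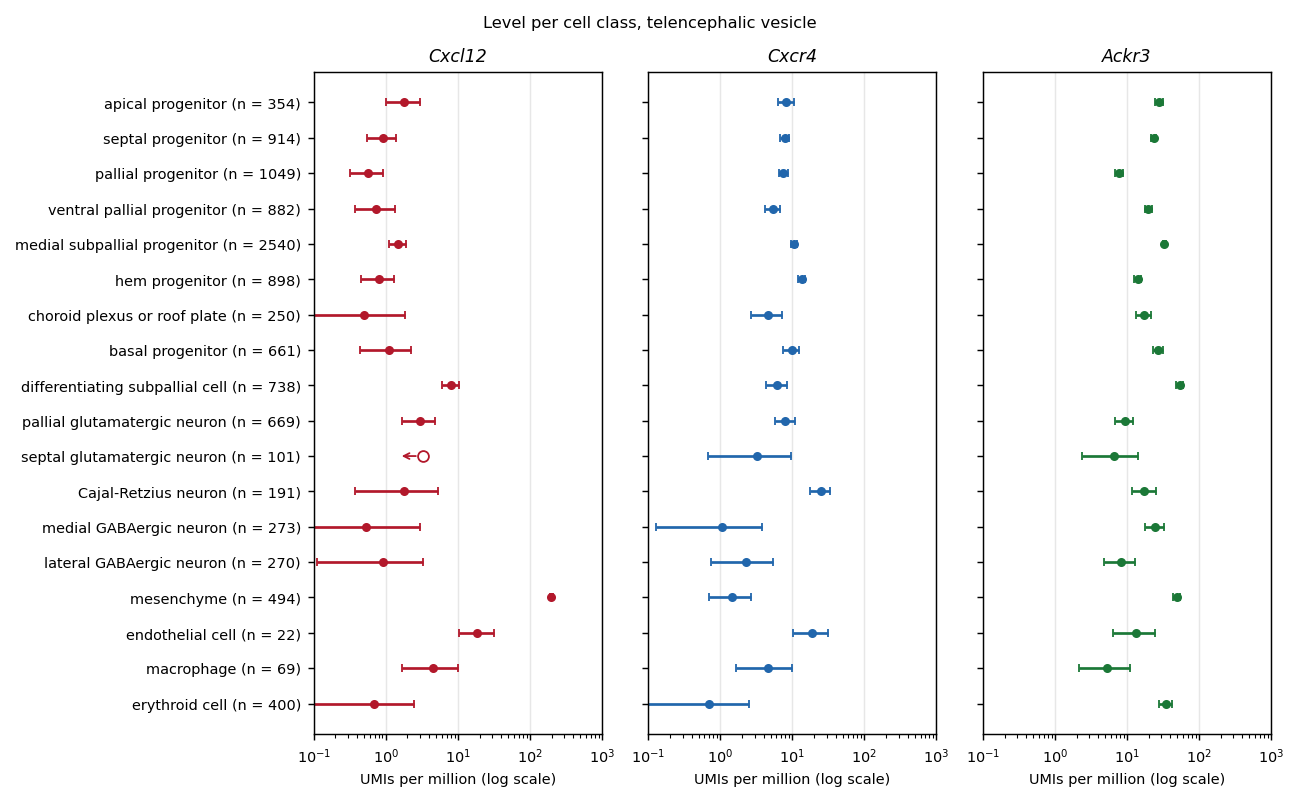
Level of each gene (CPM, log scale) in the named classes of the telencephalic vesicle, with exact 95% counting intervals and the number of cells. The open mark with an arrow stands for a class with 0 UMIs, at the 3-count limit. Cxcl12 reaches 199 in mesenchyme, Cxcr4 24.6 in Cajal-Retzius neurons and Ackr3 53.7 in differentiating subpallial cells.

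Ackr3, the scavenging receptor, was more abundant than Cxcr4 in sums over each library, with 4022 against 1459 UMIs in the vesicle and 1027 against 255 in the septal explants. These totals are not scaled to transcript length. In the vesicle its highest levels were in differentiating subpallial cells at 53.7 CPM (48.1 to 59.7) and in mesenchyme at 48.7 (43.6 to 54.2), with overlapping intervals. Subpallial progenitors had more than pallial progenitors in both libraries. The vesicle values were 33.1 (31.3 to 35.0) and 7.71 (6.73 to 8.80), a ratio of 4.29 (3.72 to 4.98). The septal ratio over both subpallial progenitor classes was 2.78 (2.19 to 3.53). The vesicle ratio stayed between 3.06 and 4.76 over the other clusterings.

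Basal progenitors, the Eomes-positive cells dividing away from the ventricle, had more Ackr3 than pallial APs. They were at 26.8 CPM (22.9 to 31.1) in the vesicle, 3.47-fold (2.83 to 4.26) the pallial AP level, and at 14.7 (11.9 to 17.9) in the septal explants, 2.15-fold (1.64 to 2.82).

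Neuronal Ackr3 is described for each library in turn. Septal Ackr3 was highest in Cajal-Retzius neurons at 38.6 CPM (31.4 to 46.9) and in pallial glutamatergic neurons at 34.3 (29.7 to 39.4), which do not differ beyond counting error, whereas septal glutamatergic neurons were at 2.71 (0.881 to 6.33). Septal pallial glutamatergic neurons stood 5.02-fold (4.01 to 6.30) above pallial APs. In the vesicle the classes of the same names were at 9.26 and 7.71, a ratio of 1.20 (0.865 to 1.64). The neuron classes share a name but differ in markers. Neurod2 gave a UMI in 78.4% of the septal and 15.1% of the vesicle class, and Neurod6 in 64.5% and 7.47%. Tbr1 gave one in 99.3% and 89.8%, and Slc17a6 in 60.8% and 83.3%. The part of this difference in content in the 2 Ackr3 ratios was not tested. Vesicle Cajal-Retzius neurons were at 17.4 (11.7 to 25.04) and exceeded hem progenitors by 1.24-fold (0.818 to 1.82), against 6.48-fold (3.62 to 12.6) in the septal explants.

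Summed over all neurons and all APs, Ackr3 was 2.54-fold (2.21 to 2.92) higher in neurons of the septal explants and at 0.580 of the AP level (0.489 to 0.684) in the vesicle. Cxcr4 was at 1.42 (1.04 to 1.91) and 0.854 (0.685 to 1.05), and Cxcl12 at 1.34 (0.656 to 2.55) and 1.80 (1.09 to 2.84). The vesicle Cxcl12 ratio was 1.06 at the finer clustering. Among septal values Ackr3 was thus the 1 member of 3 past 2-fold, where 17.5% of 12743 tested genes were higher and 16.6% lower by that much. No member passed 2-fold in the vesicle, where 17.3% of 15860 genes were higher and 20% lower. At 1.5-fold, Ackr3 was higher in septal neurons, where 27.6% of genes were higher and 25.1% lower, and in the vesicle Cxcl12 was higher and Ackr3 lower, where 26.1% were higher and 30.4% lower. Both vesicle calls at 1.5-fold depended on the clustering or barcode filter. Cxcl12 was at 1.06 at resolution 2.5. Ackr3 was at 0.716 at resolution 0.8, 0.704 at resolution 2.5, 0.707 with another seed and 0.764 with all barcodes kept. None of these values passes 1.5-fold. Subpallial progenitors, rich in Ackr3, made up 2540 of 6637 APs in the vesicle and 553 of 3384 in the explants, and their part in the result was not tested. Tissue, age, kit and counting software cannot be told apart.

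**Figure D4:**
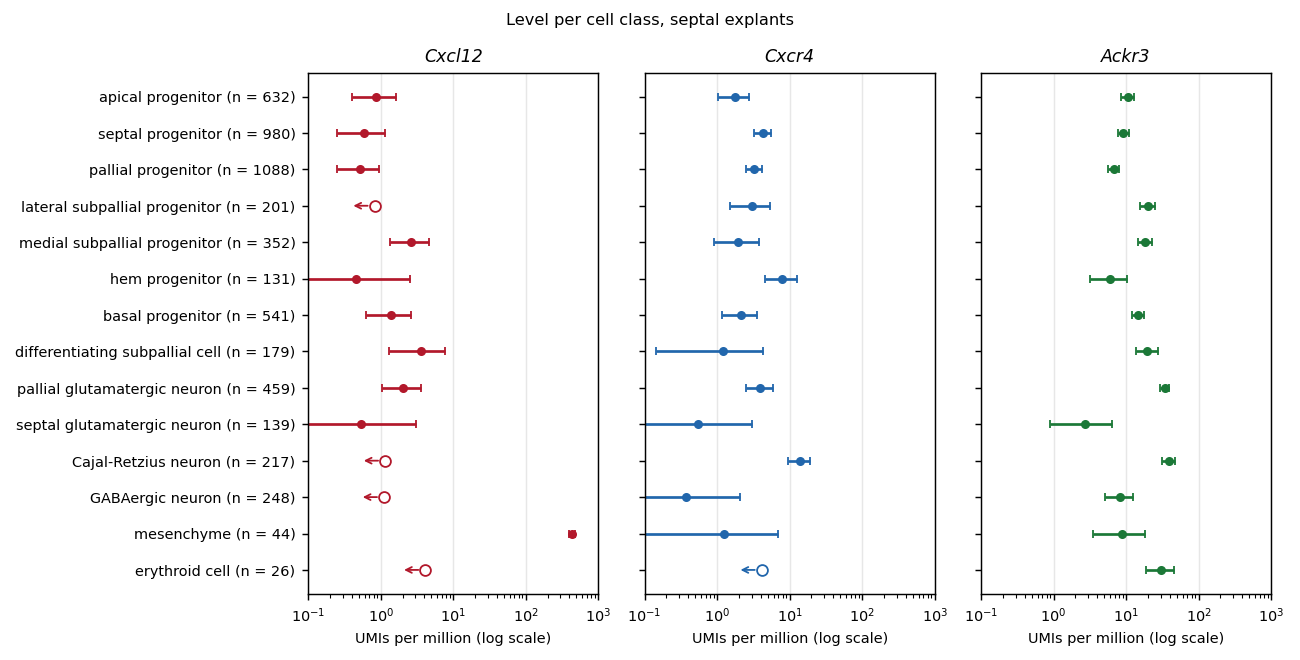
Level of each gene (CPM, log scale) in the named classes of the septal explants, with exact 95% counting intervals and the number of cells. Open marks with arrows stand for 0 UMIs, at the 3-count limit. Cxcl12 reaches 435 in mesenchyme, and Ackr3 is at 38.6 and 34.3 in Cajal-Retzius and pallial glutamatergic neurons.

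The septal pallial glutamatergic class joined 2 clusters. The larger, of 394 cells led by Calb2, Cbln2 and Ebf1, was at 26.6 Ackr3 CPM (22.2 to 31.5). The smaller, of 65 cells led by Pcp4, Neurod6 and Neurod2, was at 74.3 (58.0 to 93.7). The Neurod6-led cluster contained no cell with 3 or more YFP UMIs, and 49 of its 65 cells had none. Cells without YFP can come from either pool, since the transcript may be missed. Cells with 3 or more YFP UMIs are taken to come from the E11.5 embryos. Fewer YFP UMIs do not assign a cell, because free RNA was present. Over the whole class, cells with 3 or more YFP UMIs were at 25.3 Ackr3 CPM and cells without YFP at 47.1, a ratio of 0.536 (0.391 to 0.734). Within the larger cluster the ratio was 0.856 (0.570 to 1.31), so the difference was not detectable there. Age and genotype cannot be told apart in this comparison.

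In Cajal-Retzius neurons, cells with 3 or more YFP UMIs were at 37.8 and cells without YFP at 32.4 for Ackr3, a ratio of 1.17 (0.674 to 2.13). For Cxcr4 they were at 12.8 and 13.3. Among cells without YFP, APs with a tdTomato UMI were at 7.63 Ackr3 CPM and APs without one at 11.7, a ratio of 0.655 (0.383 to 1.06). For neurons this ratio was 0.860 (0.524 to 1.36). The Cxcr4 ratios were 1.20 (0.538 to 2.43) in APs, from 10 and 43 UMIs, and 2.66 (0.642 to 10.5) in neurons, from only 5 and 6. No difference of either receptor with tdTomato was detectable at this depth, and the intervals allow differences past 1.5-fold.

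Medial GABAergic neurons of the vesicle had more Ackr3 than lateral ones, at 24.3 (17.8 to 32.4) and 8.18 (4.85 to 12.9), a ratio of 2.97 (1.69 to 5.44). The size of this difference depended on the clustering, which set it between 1.49 and 3.11, as the lateral level reached 14.99. In the same medial neurons Cxcr4 was at 1.06.

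Outside the nervous system, Ackr3 was also found in erythroid cells. The 400 erythroid cells of the vesicle held 100 UMIs, 34.6 CPM (28.2 to 42.1), and the 26 of the septal explants held 22, 30.2 (18.9 to 45.7). These levels were 1.57-fold (1.28 to 1.92) and 2.28-fold (1.42 to 3.47) those of all neural cells. In the same vesicle erythroid cells, the neural genes Hes5, Sox2 and Tubb3 were at 19.7, 24.2 and 29.4 CPM, against 140.1, 357 and 446 in neural cells. In the septal explants they were at 41.2, 31.5 and 462 in erythroid against 119, 179 and 1592 in neural cells. The Ackr3 level was therefore above, and the levels of these 3 neural genes below, the neural level. Septal mesenchyme had 7 Ackr3 UMIs, 8.79 CPM (3.53 to 18.1) or 0.663 of neural (0.266 to 1.37), against a ratio of 2.21 (1.97 to 2.48) in the vesicle. All 7 lay in the 34 septal cells led by mesenchymal markers, which were at 13.4 CPM (5.41 to 27.7), against 13.3 in all septal neural cells.

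The remaining vesicle classes had Ackr3 at 28.1 CPM in APs without a regional name, 23.4 in septal progenitors, 19.7 in ventral pallial progenitors, 17.2 in choroid plexus or roof plate, 14.0 in hem progenitors, 13.4 in endothelial cells, 6.52 in septal glutamatergic neurons and 5.31 in macrophages. In the explants lateral subpallial progenitors (20.02), differentiating subpallial cells (19.7) and medial subpallial progenitors (18.1) did not differ beyond counting error. They stood above APs without a regional name at 10.5, septal progenitors at 9.18, GABAergic neurons at 8.13 and hem progenitors at 5.95. Hem progenitors thus had the highest Cxcr4 among regional progenitors. Their Ackr3 was at 0.621 (0.547 to 0.703) of the level of the other APs pooled in the vesicle, and 0.588 (0.311 to 1.01) in the explants. The vesicle pool includes the Ackr3-rich medial subpallial progenitors, at 33.1 CPM. Against pallial progenitors, at 7.71 CPM, vesicle hem Ackr3 was higher, at a ratio of 1.82. The lowest such ratio under the 6 other clusterings was 1.34. The septal ratio to pallial progenitors was 0.872, and 0.763 to 1.28 under the other clusterings. Lower Ackr3 in the vesicle hem therefore holds against the pooled APs and not against pallial progenitors.

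To place the genes between progenitor and neuron, neural cells were ordered by the ratio of neuronal to progenitor gene UMIs and divided into 10 bins of equal size. In the vesicle Ackr3 was at 17.8 CPM in the first bin, 38.3 (34.5 to 42.4) in bin 8 and 9.13 (7.12 to 11.54) in bin 10. The septal series was at 6.81 in the first and 24.9 (21.2 to 29.1) in the last bin. Cxcr4 stayed between 6.65 and 11.2 in the vesicle and between 2.74 and 4.20 in the septal explants. Cxcl12 was highest in bin 9 of the vesicle at 3.13 (1.96 to 4.73) and in bin 8 of the septal explants at 2.41 (1.32 to 4.04).

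Named classes were pooled into pallial, subpallial and hem lineages and binned separately after these values were seen. The hem lineage pools hem progenitors with Cajal-Retzius neurons. No trajectory was inferred, and whether the neurons of a pool arose from its progenitors was not tested. In the vesicle subpallial lineage Ackr3 reached 54.1 (46.6 to 62.5) and Cxcl12 6.11 (3.78 to 9.34) in bin 8, and they were at 10.7 and 0.690 in bin 10. Cxcr4 in this lineage was at 12.2 (8.86 to 16.3) in the first bin and 1.72 (0.560 to 4.02) in the last. The vesicle pallial lineage had its Ackr3 peak in bin 7 at 29.8 (24.4 to 35.9), next to 13.2 in bin 6 and 9.85 in bin 8. The septal pallial lineage had Ackr3 at 3.33 (1.72 to 5.81) in the first and 36.8 (29.9 to 44.7) in the last bin. The septal pool of hem progenitors and Cajal-Retzius neurons was at 3.51 (0.425 to 12.7) and 55.0 (34.1 to 84.1). In the vesicle hem lineage Ackr3 was at 8.74 and 16.2, with overlapping intervals. The septal subpallial lineage did not rise to its last bin. Its Ackr3 was at 19.8 (13.2 to 28.7) in bin 1, 25.9 (17.7 to 36.6) in bin 6 and 8.89 (4.26 to 16.4) in bin 10.

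**Figure D5:**
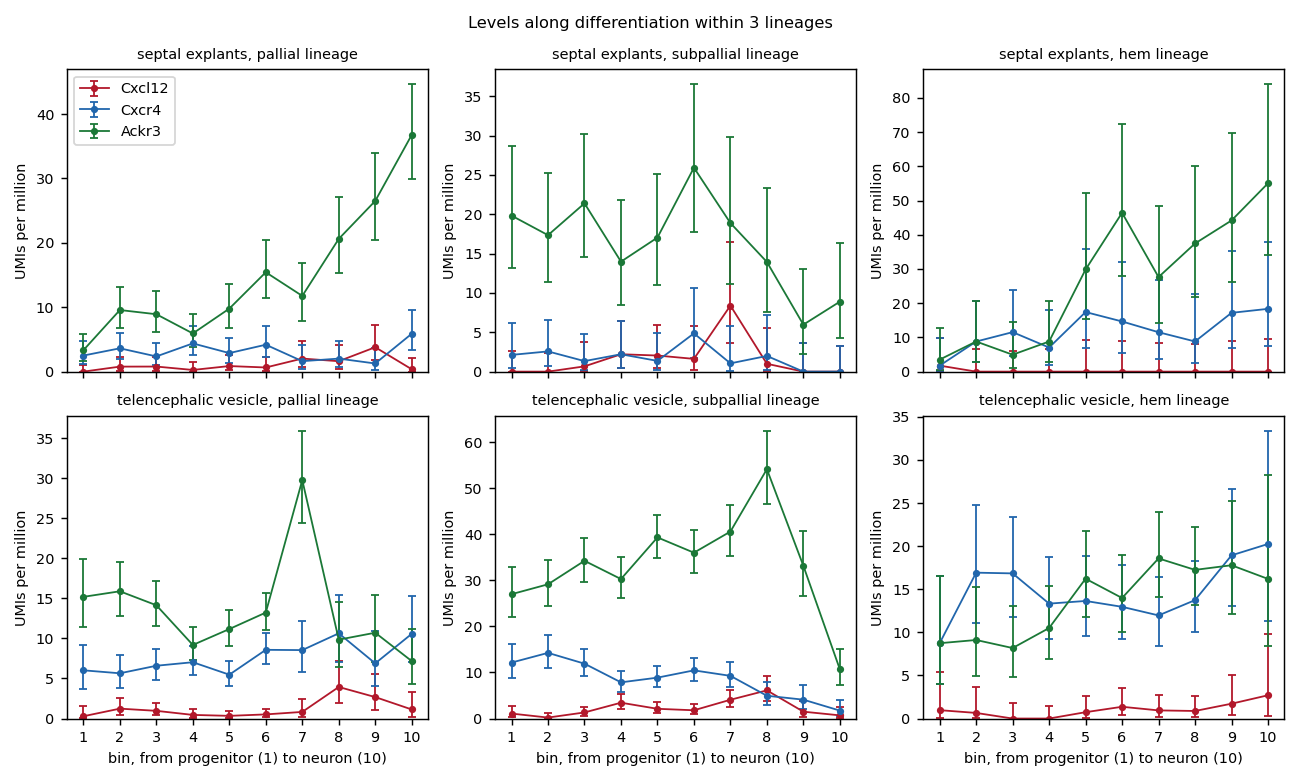
Level (CPM) of Cxcl12, Cxcr4 and Ackr3 in 10 bins from progenitor to neuron within the pallial, subpallial and hem lineages of each library, with exact 95% counting intervals. A lineage here is a pool of named classes. Ackr3 peaks before the last bins in the vesicle (29.8 in pallial bin 7, 54.1 in subpallial bin 8). It is highest in the last bin of the septal pallial and hem lineages (36.8 and 55.0), and in bin 6 of the septal subpallial lineage (25.9, against 8.89 in bin 10).

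Cells with both receptors were then counted against the number expected from the share with each. In the vesicle 418 cells held both, against 395 expected within clusters and 10 depth groups, a ratio of 1.06 (0.958 to 1.16). The explants had 50 cells with both against 44.3 expected, a ratio of 1.13 (0.838 to 1.49). Without matching for cluster and depth the vesicle ratio was 1.56 (1.42 to 1.72), and its cells with both receptors had a median of 37597.5 UMIs against 9623 in all neural cells. Cajal-Retzius neurons had 16 of the 50 septal cells with both receptors, 7.37% of the class. In the vesicle they had 5 of the 418, 2.62% of the class, below septal progenitors (8.32%) and hem progenitors (7.91%). These shares are not matched for depth.

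Ligand and scavenging receptor shared neural cells of the vesicle more often than their separate shares gave, with 96 cells against 71.7 expected in the same strata, a ratio of 1.34 (1.08 to 1.64). Without strata this ratio was 2.27 (1.84 to 2.77). Depth still varied within each depth group, and its part in the remaining excess was not tested. With at least 2 UMIs of each, 13 cells stood against 7.36 expected, a ratio of 1.77 whose interval includes 1 (0.940 to 3.02). In differentiating subpallial cells the numbers were 24 and 14.96, a ratio of 1.60 (1.03 to 2.39). The explants had 7 neural cells with both against 10.2 expected, a ratio of 0.684 (0.275 to 1.41). For Cxcl12 with Cxcr4 in the same strata, 39 vesicle neural cells stood against 34.6 expected, a ratio of 1.13 (0.801 to 1.54). The septal numbers for that pair were 4 and 2.64, a ratio of 1.51 (0.412 to 3.87). Across clusters the levels of the 3 genes were weakly related, with Pearson correlations of log2(CPM + 1) between -0.129 and 0.165 over 25 septal clusters and between 0.0913 and 0.314 over 28 vesicle clusters. Clusters of a library share depth and free RNA, and these values are descriptions.

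The genes whose cluster pattern was most like each member were ranked among 10915 septal and 13829 vesicle genes with at least 200 UMIs. For vesicle Cxcl12 these were Cped1 (r = 0.890), Foxd2os, Foxc1, a forkhead factor of meningeal mesenchyme, Snai1 and Bgn. For septal Cxcl12 they were Tyrobp (r = 0.934), Ppbp, Col3a1, Arhgdib and Lyz2, of which Tyrobp and Lyz2 mark the myeloid cells that shared the mesenchyme cluster. Septal Cxcr4 was most like Zadh2 (r = 0.80), Cep112, Luzp1, Tgif1 and Cntrob, and vesicle Cxcr4 most like Mab21l3 (r = 0.848), Tmem198b, Ascl4, Rhpn1 and Usp2. Septal Ackr3 was most like Eif2ak1 (r = 0.666), Zeb2, Tspan2, Slc25a38 and Ccdc84, and with unnamed clusters left out, a choice made after the data were seen, most like Neurod2 (r = 0.665). Vesicle Ackr3 was most like Agfg2 (r = 0.786), Brms1l, Cep76, Fgfrl1 and Ikzf5, 4 of which peaked in an unnamed cluster, and without the unnamed clusters most like Cmss1 (r = 0.698).

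Of 55 other genes of chemokine signalling, 54 were in each feature list and 28 septal and 33 vesicle genes reached 50 UMIs over neurons and APs. Of these, 7 septal genes were higher and 2 lower in neurons by 2-fold or more, and in the vesicle 10 were higher and 6 lower. Over all tested genes 17.5% were higher and 16.6% lower in the explants, and 17.3% higher and 20% lower in the vesicle. The median fold of the tested list genes was 1.41 and 1.16, against 1.03 and 0.947 over all tested genes.

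Among other chemokine receptors, Ackr1, an atypical receptor for many chemokines, was higher in neurons in both libraries, 4.91-fold (3.40 to 7.11) in the septal explants and 8.46-fold (6.36 to 11.2) in the vesicle. It was the 1 tested gene of this group in the explants, and Cxcr5 at 4.61-fold and Ackr4 at 2.24-fold were the others in the vesicle. Of the other CXC chemokines only Cxcl14 in the vesicle was testable, at 2.60-fold (1.70 to 3.86). Of the other ligands and receptor partners, 2 of 4 tested in the explants and 4 of 5 in the vesicle were lower in neurons by 2-fold or more, where 16.6% and 20% of all tested genes were. Mif, a cytokine that also binds CXCR4, was at 0.347 of the AP level in septal neurons and at 0.371 in vesicle neurons, and Hmgb1, a chromatin protein that forms a complex with CXCL12, was at 0.508 and 0.477. Ramp2, a partner of the adrenomedullin receptor, was at 0.423 and 0.390, and Calcrl, the receptor it partners, at 0.102 (0.00255 to 0.578) in the vesicle with 1 UMI in neurons.

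Downstream genes included Gng2, a G protein gamma subunit, higher in neurons by 4.09-fold and 3.52-fold, and Arrb1, encoding an arrestin, by 2.04-fold (1.60 to 2.58) and 2.18-fold (1.82 to 2.59). Gnao1, a G protein alpha subunit, was higher by 2.14-fold in septal neurons, and the receptor kinase gene Grk4 was at 0.497 (0.337 to 0.708) of the AP level in vesicle neurons. RGS proteins shorten G protein signals, and of their genes 3 of 5 tested in the septal explants and 4 of 6 in the vesicle were higher in neurons by 2-fold or more, against 17.5% and 17.3% of all tested genes. Rgs2 was at 3.19-fold and 5.57-fold, Rgs16 at 2.17-fold and 4.34-fold, and Rgs4 in the vesicle at 74.8-fold from 75 and 11 UMIs (39.5 to 156). Rgs3 was at 2.51-fold in the explants and 1.06-fold in the vesicle, and Rgs10 at 2.09-fold in the vesicle. The 4 protease genes tested in each library included none higher by 2-fold, and Adam17, which encodes a sheddase, was at 0.374 of the AP level in vesicle neurons.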

How the data were processed

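Dissociated cells of 2 pooled tissues were sequenced as 3′ libraries with 10x Genomics kits, v2 for the septal explants and v3.1 for the telencephalic vesicle. The deposited values are UMI counts per gene and barcode, made by the authors with Cell Ranger 2.1.1 and 7.1.0 (submitters' processing notes, which also name mm10). Whether intronic reads were counted is not given in the sources used here, and their inclusion would alter levels.

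Barcodes with mitochondrial shares more than 3 median absolute deviations from the median, on either side, were removed, leaving 5444 and 12471. Scrublet doublets were removed after that (60 septal and 713 vesicle). Cells were scaled to 10000 UMIs and clustered with Scanpy 1.11.5 (2000 variable genes, 30 components, 15 neighbours, Leiden resolution 1.5, cell cycle genes left out of the variable genes). A cluster was named from at least 3 markers. The expected doublet rate, the requirements for Trp73, Lhx6 or Gad2, and the limits 0 and 2 on the neuron to progenitor axis (log2), were set after the data were seen. The members and gene lists were chosen with earlier results of these data known.

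Levels are CPM from summed counts with exact Poisson intervals, shares have Clopper-Pearson intervals, and ratios have conditional binomial intervals. A count of 0 was bounded by 3 counts. Fold differences were called at 2-fold for genes with at least 50 UMIs, without a test. Named genes were the 3 members in every class, list genes past 2-fold in either library, and the 5 genes most like each member. Ratio and likeness code was tested on simulated counts. Total depth was 83103280 and 194821794 UMIs, from 3902 to 84281 and from 500 to 207131 per barcode. The libraries shared 1 barcode sequence. Alternatives covered resolution, seed, doublets, barcode filter, cell cycle genes, thinning, bins and fold.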

Additional observations from a re-analysis of the deposited data

Results flagged for a closer look

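The Ackr3 ratio of neurons to APs lay on opposite sides of 1 in the 2 libraries, at 2.54 (2.21 to 2.92) in the septal explants and 0.580 (0.489 to 0.684) in the telencephalic vesicle. The difference was not tested, since each tissue is 1 library. Over 6 alternative clusterings and barcode filters the septal ratio lay between 2.27 and 2.59 and the vesicle ratio between 0.647 and 0.764. Tissue, age, kit and counting software differ together between the libraries and cannot be told apart.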

How the results depend on the processing

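No paired analysis was possible because each group is 1 library. Of 104 recomputed values of the main results, 88 kept their size within the counting interval and 16 moved beyond it. Levels and shares cannot change sign, and no neuron over AP or mesenchyme over neural ratio whose interval excluded 1 crossed 1. The Ackr3 neuron over AP ratio of the vesicle was 0.716 at resolution 0.8, 0.704 at resolution 2.5, 0.707 with another seed and 0.764 with all barcodes kept. The vesicle Cxcl12 neuron over AP ratio was 1.06 at resolution 2.5, so its excess in neurons depends on the clustering. Vesicle mesenchyme over neural ratios were 118 for Cxcl12 and 1.92 for Ackr3 with doublets kept, and 123 for Cxcl12 with all barcodes. Leaving out the septal cells led by macrophage markers, an alternative chosen after the data were seen, gave 735 for Cxcl12 and 0 for Cxcr4. Septal mesenchyme formed no cluster of its own with all barcodes kept. Cells with at least 2 UMIs of each receptor numbered 3 against 1.55 expected in the septal explants, a ratio of 1.94 (0.400 to 5.67). The vesicle had 51 against 43.4, a ratio of 1.17 (0.874 to 1.54). Both intervals include 1. Vesicle cells with at least 1 UMI of each were 1.56 times the number expected without strata. With 5 bins the highest Ackr3 bin of the vesicle was at 29.5. At 1.5-fold, 12 septal pathway genes were higher and 5 lower. Of 744 other values 193 moved. Some ratios between classes crossed 1 over the clusterings. Septal medial subpallial over pallial progenitors was 5.06 (0.674 to 3.50 in the others) for Cxcl12 and 0.603 (0.652 to 1.37) for Cxcr4, and vesicle medial over lateral GABAergic neurons 0.465 (0.342 to 1.66) for Cxcr4. Septal pallial glutamatergic neurons over pallial progenitors was 1.19 (0.720 to 1.38) and basal over pallial progenitors 0.657 (0.504 to 1.10) for Cxcr4. Hem over pallial progenitors was 0.872 (0.763 to 1.28) for septal Ackr3 and 1.42 (0.876 to 2.24) for vesicle Cxcl12. Depth limits Cxcl12 in neural classes and Cxcr4 in small neuron classes, several of which rest on under 10 UMIs.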
